A study of Mus musculus with 14 samples.

Results

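Integrins are cell surface receptors made of an alpha and a beta subunit, and the H3K27ac sites at 10 of their genes in mouse fibroblasts are described here. The genes were the alpha subunits Itga1, Itga3, Itga5, Itga11 and Itgav, the beta subunits Itgb1, Itgb3 and Itgb5, and the leukocyte pair Itgal and Itgb2. A site belonged to a gene when it overlapped the annotated gene body or the 20 kb on either side of it. By this rule 263 of the 122228 sites in the deposited list were at these 10 genes, 252 at the 8 integrins of matrix adhesion and 11 at the leukocyte integrins.

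The cells were immortalized mouse embryo fibroblasts (iMEF) of a single clone, NG3. In these cells exon 4 of the floxed endogenous Ash2l alleles had been deleted through Cre-ER, and human ASH2L fused to FKBP12 F36V and HA tags was expressed from a lentiviral construct. Chromatin immunoprecipitation with sequencing (ChIP-seq) for acetylation of lysine 27 of histone H3 (H3K27ac) was carried out on untreated cells and on cells treated with the degrader dTAG-13 for 30 min, 2 h, 4 h, 8 h or 16 h, with 2 libraries per group and 12 in all. An input library, chromatin without immunoprecipitation, was made from control cells and from cells treated for 16 h, so that the study comprised 14 samples in 8 groups. The deposited list joined the sites of all these samples into positions without a value for any sample. It therefore gave no replicate error and no change over time for any gene, and all values below are descriptions. The paper states a planned minimum of raw reads per ChIP sample, but the list does not give the depth reached.

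In cells that adhere to a matrix, alpha and beta subunits pair and span the membrane. The beta1 subunit pairs with alpha1 and alpha11 to bind collagens, with alpha3 to bind laminins and with alpha5 to bind fibronectin, whereas alphav pairs with beta1, beta3 or beta5 to bind RGD-containing ligands such as vitronectin. On the cytoplasmic side talins and kindlins bind the beta tails and link them to actin through proteins of focal adhesions. Itgal and Itgb2 encode alphaL and beta2 of LFA-1, an integrin of white blood cells that binds ICAM proteins on other cells. H3K27ac marks nucleosomes at active promoters and enhancers. It does not report how much protein or RNA a gene gives.

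The promoter sequences show what lay under the sites at the 5′ ends. RefSeq promoters (GRCm38.p6, 300 bases around the start) were found for 7 of the 10 members and not for Itgb3, Itgal and Itgb2. The part upstream of the RefSeq start or of the annotated 5′ end, whichever came first, is printed for each, 5′ to 3′ on the strand of the gene, with capitals marking GGGCGG on either strand, the core of the GC box bound by SP and KLF factors.
Itga1 (chr13:115101965-115102214, minus strand): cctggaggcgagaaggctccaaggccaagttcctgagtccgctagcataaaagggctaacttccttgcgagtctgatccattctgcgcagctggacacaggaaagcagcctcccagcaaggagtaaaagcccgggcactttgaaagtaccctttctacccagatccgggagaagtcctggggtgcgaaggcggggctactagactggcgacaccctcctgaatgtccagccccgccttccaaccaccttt
Itga3 (chr11:95076802-95076964, minus strand): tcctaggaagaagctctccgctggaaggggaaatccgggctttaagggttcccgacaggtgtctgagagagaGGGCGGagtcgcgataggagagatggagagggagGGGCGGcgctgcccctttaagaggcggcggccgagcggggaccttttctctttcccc
Itga5 (chr15:103366792-103367041, minus strand): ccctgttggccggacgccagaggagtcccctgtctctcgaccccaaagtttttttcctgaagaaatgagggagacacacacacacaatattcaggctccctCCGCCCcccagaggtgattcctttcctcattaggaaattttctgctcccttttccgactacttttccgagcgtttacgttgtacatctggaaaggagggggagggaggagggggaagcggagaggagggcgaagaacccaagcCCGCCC
Itga11 (chr9:62677605-62677825, plus strand): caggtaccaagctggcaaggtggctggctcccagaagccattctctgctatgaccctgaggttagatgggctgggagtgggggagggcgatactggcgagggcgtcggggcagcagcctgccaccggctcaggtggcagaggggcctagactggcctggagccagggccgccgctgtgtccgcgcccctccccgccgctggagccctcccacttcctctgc
Itgav (chr2:83724147-83724396, plus strand): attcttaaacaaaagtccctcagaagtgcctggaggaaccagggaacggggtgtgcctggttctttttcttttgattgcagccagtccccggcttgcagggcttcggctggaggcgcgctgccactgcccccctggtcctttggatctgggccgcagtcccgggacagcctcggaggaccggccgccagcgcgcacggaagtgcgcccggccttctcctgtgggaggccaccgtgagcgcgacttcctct
Itgb1 (chr8:128685404-128685653, plus strand): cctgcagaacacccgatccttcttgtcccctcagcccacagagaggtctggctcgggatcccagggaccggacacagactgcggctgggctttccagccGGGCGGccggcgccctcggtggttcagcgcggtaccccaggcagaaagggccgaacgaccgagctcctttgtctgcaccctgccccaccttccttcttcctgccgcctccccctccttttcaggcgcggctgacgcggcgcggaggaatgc
Itgb5 (chr16:33829415-33829664, plus strand): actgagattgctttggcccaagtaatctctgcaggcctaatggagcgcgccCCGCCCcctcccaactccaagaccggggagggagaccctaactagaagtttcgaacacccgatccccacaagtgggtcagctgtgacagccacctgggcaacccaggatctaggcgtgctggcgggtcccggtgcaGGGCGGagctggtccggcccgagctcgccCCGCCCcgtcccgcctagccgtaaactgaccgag

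The upstream bases of Itga1, Itga3, Itga5, Itga11, Itgav and Itgb5 lay entirely within an H3K27ac site, and those of Itgb1 did so for 241 of 250 bases. Over the whole 300-base window, GGGCGG was present in 5 of the 7 members, with 3 matches in Itga3, 3 in Itgb5, 2 in Itga5, and 1 each in Itgav and Itgb1, compared to 51.3% of the promoters of 16433 coding genes. Itga1 and Itga11 had 0 matches. The TATA letters TATAAA were found in 0 of the 7 members and in 14.3% of all promoters, and the NF-Y core CCAAT in 1 of 7, at an internal promoter of Itga3 that was outside any site, compared to 42.2%. Itga1 and Itga11 were also the matrix integrins whose 1000 bp around the 5′ end did not pass as CpG-rich, which took a GC content of 50% or more and 0.6 or more of the CpGs that base composition predicts. Their CpG ratios, observed over expected, were 0.538 and 0.458, whereas those of the other 6 matrix integrins ranged from 0.636 for Itga5 to 0.93 for Itgb1. The leukocyte genes had the lowest ratios of the 10, 0.309 for Itgal and 0.244 for Itgb2. Among all coding genes 44.8% were CpG-rich by this measure.

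The main question was whether a site marked the promoter of each gene, taken as a site whose middle was within 1 kb of a transcription start site (TSS) of any of its transcripts. All 8 matrix integrins had such a site and 0 of the 2 leukocyte integrins did, compared to 54.7% of 21755 protein-coding genes. Promoter sites were present at 85.0% of CpG-rich and 30.2% of other coding genes, so the promoters of Itga1 and Itga11 carried a site without being CpG-rich. The annotated 5′ end itself was inside a site in 7 of the 8 matrix integrins and in 0 of the 2 leukocyte integrins, compared to 36.5% of coding genes. A site touched the gene body in 8 of 8 and 1 of 2, compared to 61.3% of coding genes.

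**Figure D1:**
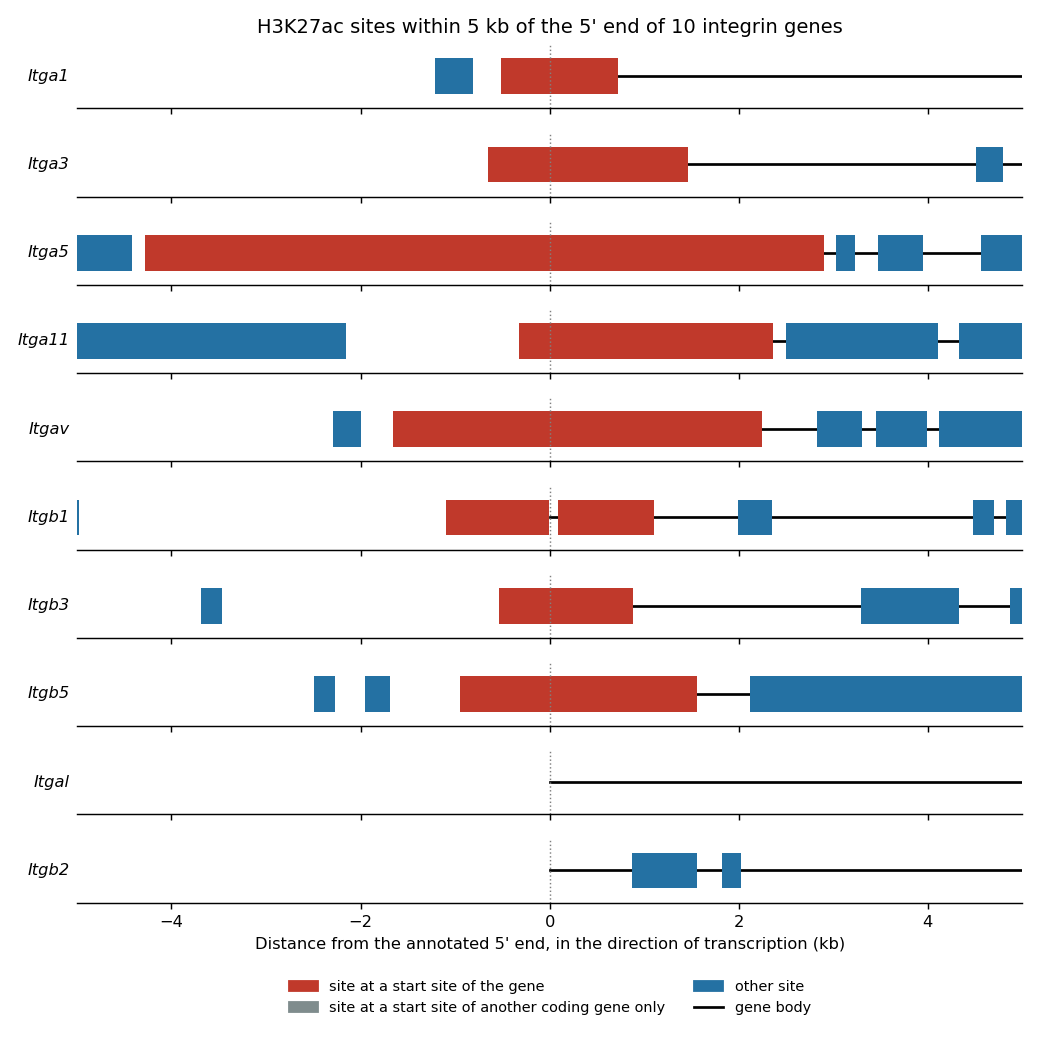
H3K27ac sites within 5 kb of the annotated 5′ end of each of the 10 genes, drawn to scale along the direction of transcription (x axis, kb). Red boxes are sites at a start site of the gene, blue boxes other sites and the black line the gene body. The 5′ end was inside a site in 7 genes, between a pair of sites in Itgb1, and in no site in Itgal and Itgb2.

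The promoter sites of the matrix integrins differed in extent. Itga5, the alpha chain of the fibronectin receptor, had the widest site of all 10 genes, 7179 bp at chr15:103363860-103371038, reaching from -4275 to 2903 bp relative to the 5′ end. The site over the 5′ end was 3901 bp wide in Itgav (chr2:83722738-83726638), 2684 bp in Itga11 (chr9:62677504-62680187), 2503 bp in Itgb5 (chr16:33828716-33831218) and 2119 bp in Itga3 (chr11:95075333-95077451). It was narrower in Itgb3, 1413 bp at chr11:104607464-104608876, and in Itga1, 1244 bp at chr13:115101237-115102480. The Itga1 site was also at the start of Gm49395, a gene model whose 5′ end is close to that of Itga1, and the promoters of both cannot be told apart. In Itga11 the site reached from -322 to 2361 bp, so that its middle was 1020 bp from the 5′ end and passed the 1 kb limit only through a TSS nearer to it.

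Itgb1, the beta subunit shared by most matrix integrins, was the exception among the 5′ ends. A site of 1083 bp (chr8:128684562-128685644) ended 10 bp upstream of the 5′ end and one of 1015 bp (chr8:128685739-128686753) began 85 bp downstream, with 94 bp between them that were in no site. A further site of 473 bp (chr8:128723609-128724081) was in intron 13, near an internal TSS. Itgb1 was also the matrix integrin without any site above 2000 bp, and its widest site, at 1083 bp, was the narrowest such maximum of the 10 genes.

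Itga5 and Itgb5 had internal TSSs with sites as well. In Itga5 sites of 359 bp (chr15:103352170-103352528), 556 bp (chr15:103355826-103356381) and 396 bp (chr15:103356831-103357226) were at such starts, in intron 15, exon 8 and intron 4. In Itgb5, whose product pairs with alphav, they measured 410 bp (chr16:33884916-33885325, exon 5), 5877 bp (chr16:33888118-33893994, intron 5) and 4285 bp (chr16:33920038-33924322, intron 10). The 5877 bp site was the third widest at the 10 genes, after the Itga5 promoter site and a site of 6599 bp at chr11:95095387-95101985, upstream of Itga3. The middle of that upstream site was at -21885 bp from the Itga3 5′ end, outside the 20 kb window, and its nearest coding TSS was that of Dlx3. Counting only TSSs of protein-coding transcripts left 1 promoter site of 4 at Itga5 and 2 of 4 at Itgb5. Most of these internal starts thus belong to transcripts not annotated as coding.

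At Itgal no site lay near the 5′ end (chr7:127296260). The nearest was 21806 bp away and the body of 38.9 kb held 0 sites. The only site in its window, 1851 bp at chr7:127344781-127346631, was at the promoter of the downstream gene Zfp768. At Itgb2 (chr10:77530252-77565708) both sites of the gene body were in intron 1, 687 bp at chr10:77531121-77531807 and 207 bp at chr10:77532070-77532276, and began 869 bp and 1818 bp downstream of the 5′ end. Their middles were 1084 bp and 1793 bp from the nearest TSS of Itgb2, so that both counted as promoter sites with a window of 2 kb, and the first also when any overlap with the 1 kb window was enough. Itgal had no promoter site under any of these rules. Of the other 8 sites in the Itgb2 window, 4 were at the promoters of Fam207a or Pttg1ip, the widest of them 2260 bp at chr10:77514874-77517133.

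The number of sites followed a wide range. The windows held 77 sites at Itgb5, 51 at Itgav, 37 at Itga11, 24 at Itgb3, 18 at Itga1, 18 at Itgb1, 17 at Itga5 and 10 at Itga3. The leukocyte genes had 10 sites at Itgb2 and 1 at Itgal. The median was 21 for the matrix integrins, compared to 4 over all coding genes (quartiles 0 and 8, 90th percentile 14), and 93 coding genes had at least as many sites as Itgb5. Itga3, with 10 sites, had as many as Itgb2, so the groups met at that value.

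**Figure D2:**
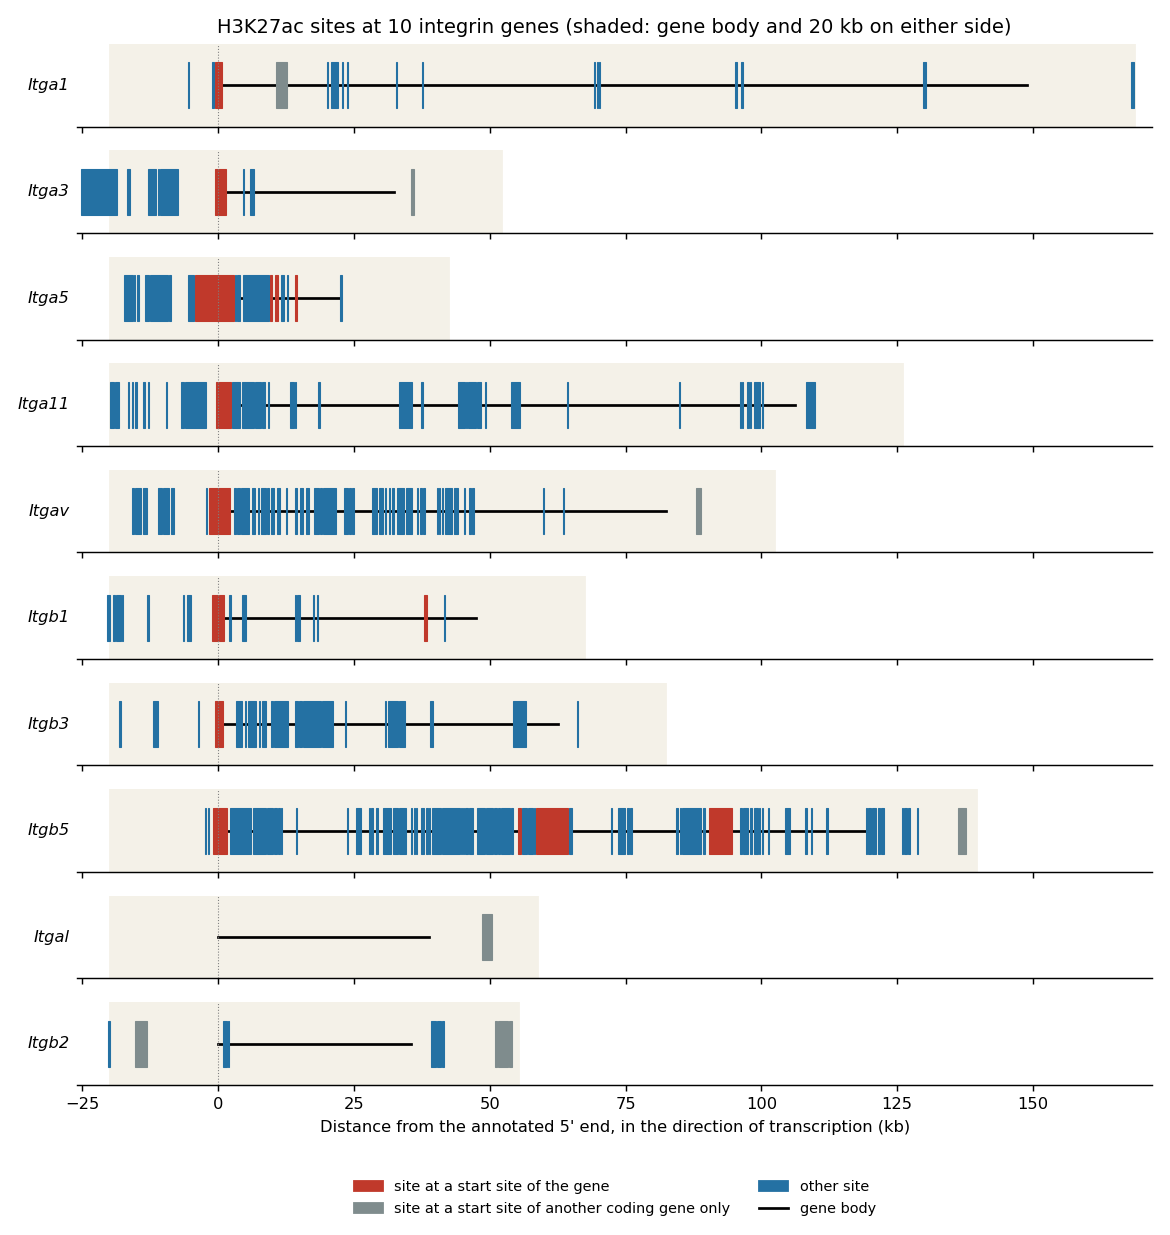
Sites (boxes) at each gene against the distance from its 5′ end in the direction of transcription (x axis, kb), with the gene body as a black line and the counted window shaded. Boxes have a minimum line width so that narrow sites remain visible. Itgb5 and Itgav held sites along much of the gene, whereas the body of Itgal held 0 and that of Itgb2 held 2.

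Because long genes offer more room, sites were also counted per 100 kb of window. The order was then Itgb5 with 48.2 sites per 100 kb, Itgav with 41.6, Itga5 with 27.2, Itga11 with 25.3, Itgb3 with 23.4, Itgb1 with 20.6, Itga3 with 13.8, Itgb2 with 13.3, Itga1 with 9.53 and Itgal with 1.27. The coding-gene median was 4.88, with quartiles of 0 and 11.05 and a 90th percentile of 18.8. Thus 6 of the 8 matrix integrins were above the 90th percentile, and Itgb5 was denser than 99.6% of coding genes. The groups overlapped on this scale, since Itgb2 was above Itga1. This order depended on counting neighbouring sites singly. With sites less than 1 kb apart joined, it was Itga11 with 10.9 regions per 100 kb, Itgb3 with 10.7, Itgb5 with 10.6, Itgb1 with 10.3, Itgav with 9.79, Itga3 with 9.68, Itga5 with 8.003, Itgb2 with 6.63, Itga1 with 5.29 and Itgal with 1.27, compared to a coding-gene median of 3.25 and a 90th percentile of 9.13. Itgb5 and Itgav then no longer stood above the other matrix integrins. With no value per sample, there is no spread by which to say which neighbours in either order differ.

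By count the groups did not overlap over the gene body, though the margin was small at Itga3, with 3 body sites against 2 at Itgb2. Counted there alone, densities were 55.1 sites per 100 kb at Itgb5, 50.9 at Itgav, 44.5 at Itga5, 32.0 at Itgb3, 24.5 at Itga11, 21.03 at Itgb1, 10.1 at Itga1 and 9.28 at Itga3, all above the 5.64 at Itgb2 and 0 at Itgal. The coding-gene median was 4.00, with quartiles of 0 and 13.5 and a 90th percentile of 30.4. Itga1 and Itga3 were thus between the quartiles, as was Itgb2. In the flanks Itgb2 had 20 sites per 100 kb, as many as Itgb1 and more than Itga1 with 7.50, Itgb3 with 10.0, Itga3 with 17.5 and Itga5 with 17.5. A site at Itgb2 had Itgb2 as its nearest coding TSS in 2 of 10 cases and at Itgal in 0 of 1. Among the matrix integrins this held for 217 of 252 sites, from 3 of 18 at Itga1 to 18 of 18 at Itgb1. Of those 3 at Itga1, 2 were in the flank, so most of its 15 body sites were nearer to the TSS of another gene. The separation of Itga1 from Itgb2 over the gene body thus rested on sites nearer to other genes. Intron 1 of Itga1 holds the gene Pelo, whose product acts in the rescue of stalled ribosomes. The widest Itga1 site, 2188 bp at chr13:115089210-115091397, was at the Pelo promoter, and the other 7 sites of the intron were nearer to that TSS than to the one of Itga1.

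**Figure D3:**
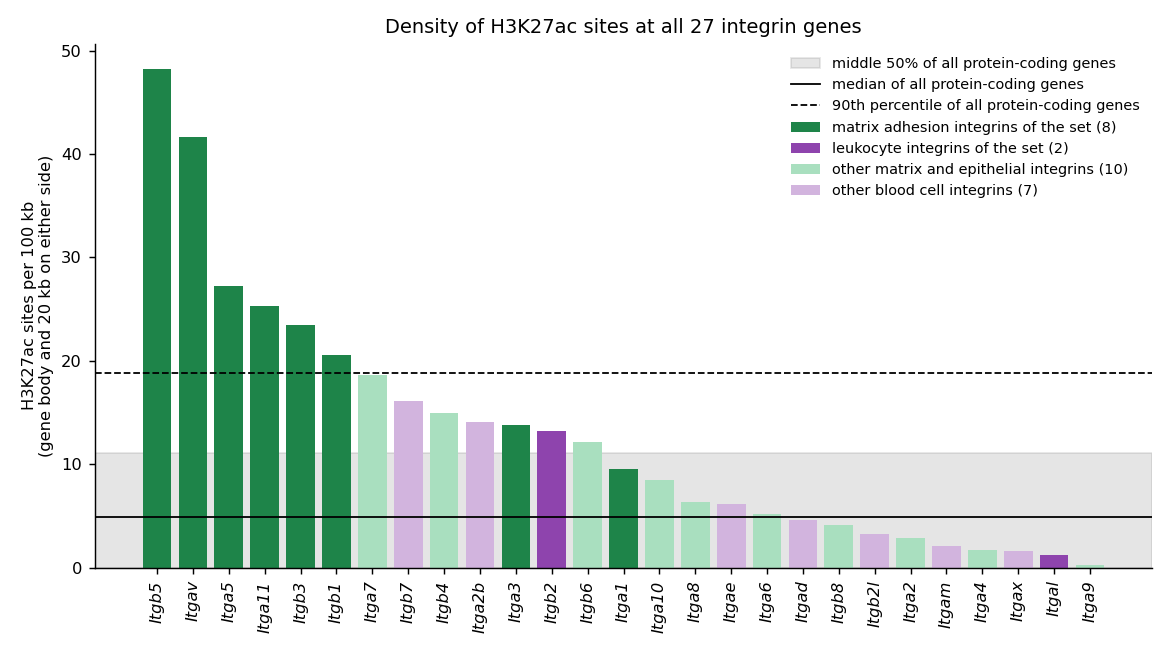
Sites per 100 kb of gene body and 20 kb flanks (y axis) for all 27 integrin genes in descending order, coloured by group. The line, band and dashed line give the median of 4.88, the middle 50% (0 to 11.05) and the 90th percentile of 18.8 over all protein-coding genes. The 6 highest bars are matrix integrins, and Itgb2 is above Itga1. Each site is counted singly, and the lead of Itgb5 and Itgav is not present when sites less than 1 kb apart are joined.

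Sites took up 20.9% of the 942 kb in the windows of the matrix integrins and 6.61% of the 154 kb at the leukocyte integrins. By gene the share was 38.8% at Itgb5, 36.5% at Itga5, 26.3% at Itgav, 22.3% at Itgb3, 20.6% at Itga11, 14.6% at Itga3, 11.1% at Itgb2, 9.01% at Itgb1, 4.63% at Itga1 and 2.35% at Itgal, with a coding-gene median of 3.19%. Itga5, at 22.5 kb the shortest of the 10 genes, thus ranked second by the bases in sites with 17 sites, whereas Itga1, at 149 kb the longest, ranked ninth with 18. The coding-gene quartiles of this share were 0 and 8.11%, so Itga1 was between them and Itgb2 was above the upper one. Within 5 kb of the 5′ end, sites covered 88.8% of bases at Itga5, 78.2% at Itga11, 60.9% at Itgav and 58.7% at Itgb5. The share was 28.8% at Itgb1, 28.1% at Itgb3, 24.0% at Itga3 and 16.5% at Itga1, compared to 8.94% at Itgb2, 0% at Itgal and a coding-gene median of 6.92% (90th percentile 31.1%).

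Most sites of the matrix integrins were in introns. The middles of 181 of 252 sites were in an intron of the reference transcript and 9 were in an exon, while 46 sites were in the upstream and 14 in the downstream flank. For comparison, introns of all coding genes held 64841 of the 122171 sites, counted by gene. The whole list also covers ground outside gene windows, so these counts are not like for like. Intron 1 held 57 of the 181 intron sites (31.5%) and 25.4% of the intron bases. Over all coding genes, intron 1 held 39.4% of intron sites and 26.7% of intron bases, so intron 1 held more than its share of bases in both, with a smaller excess at the matrix integrins. The place differed by gene. Intron 1 held 8 of the 10 intron sites of Itgb1 and 10 of 20 in Itgb3, but 7 of 63 in Itgb5, whose introns 2, 3 and 10 each held 11. In Itgav, sites were in introns 1, 2, 3 and 4 with 9, 7, 7 and 5 sites, and in Itga11 introns 1 and 2 held 10 and 7. Itga3 had 6 of its 10 sites upstream and 3 over the body. Of the sites with their middle in a gene body, 136 were closer to the 5′ end and 54 closer to the 3′ end of the gene, so that 71.6% were on the 5′ side, compared to 58.01% over all coding genes. Sites overlapped coding sequence in 29 of the 252 cases. No share over all sites stands beside this count, so it is a description only.

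**Figure D4:**
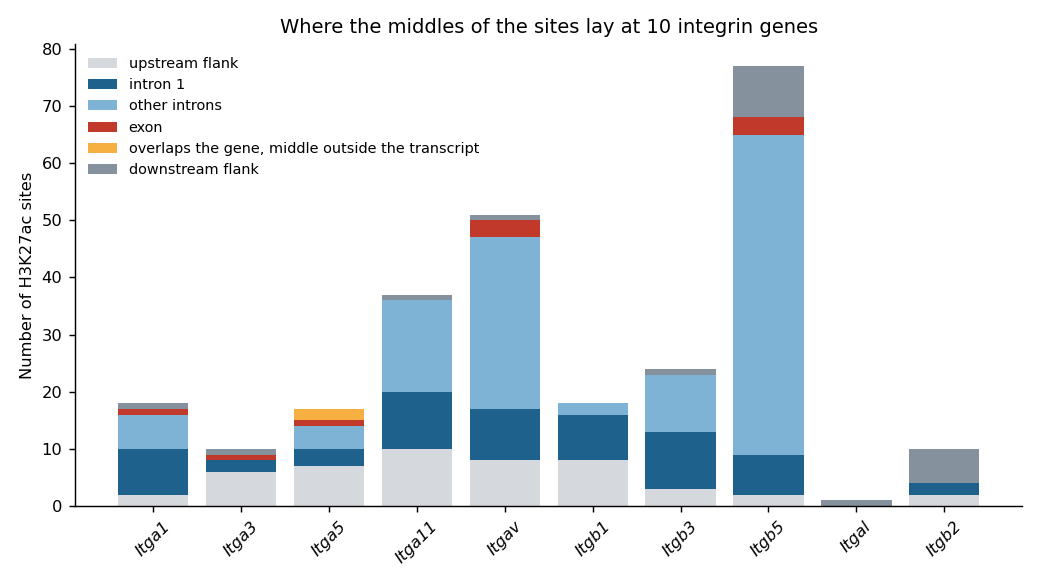
Number of sites per gene (y axis), divided by where the middle of the site lay. Introns other than the first made up most of the Itgb5 and Itgav bars, intron 1 was the largest class at Itga1, and Itgal had 1 site, downstream.

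Sites away from promoters, meaning more than 1 kb from a TSS of any coding gene, made up 232 of the 252 (92.1%) at the matrix integrins and 84.2% of all sites. A further 16 were at a promoter of the integrin itself and 4 at that of a neighbour only, the genes being Pelo in Itga1, Pdk2 beside Itga3, Fam171b beside Itgav and Umps beside Itgb5. Many were close together. When sites less than 1 kb apart were joined, the 77 sites of Itgb5 formed 17 regions, the 51 of Itgav 12, the 37 of Itga11 16, the 24 of Itgb3 11 and the 17 of Itga5 5. The longest such region of Itgb5 held 21 sites over 18.7 kb, from 35.5 to 54.2 kb downstream of the 5′ end, spanning introns 2 to 4. In Itga5 a region of 18.5 kb with 9 sites ran from -5.59 to 12.9 kb relative to the 5′ end. Those of Itgav (13.7 kb, 11 sites) and Itga11 (9.76 kb, 7 sites) also included the 5′ end, whereas that of Itgb3 (9.503 kb, 7 sites) began 3.29 kb downstream of it.

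The median width of a site was 420.5 bp at the matrix integrins and 401 bp over all sites. The medians by gene were 796.5 bp at Itgb3, 666 bp at Itga3, 489 bp at Itga5, 412 bp at Itgb5, 407 bp at Itgav, 398 bp at Itga11, 321.5 bp at Itgb1 and 299 bp at Itga1. For the 16 sites at their own promoters, internal starts included, the median was 1328.5 bp, compared to 740 bp at promoters in the list. For the 232 away from promoters it was 393 bp, compared to 370 bp in the list. The leukocyte integrins had a median of 701 bp over 11 sites, of which 5 were at promoters of neighbours. Sites wider than 2000 bp numbered 23 of 252 at the matrix integrins, 7 of them at Itgb5. At the leukocyte pair it was 1 of 11, at Itgb2, so the shares of both groups were alike. Over the whole list 4.33% of sites were this wide.

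**Figure D5:**
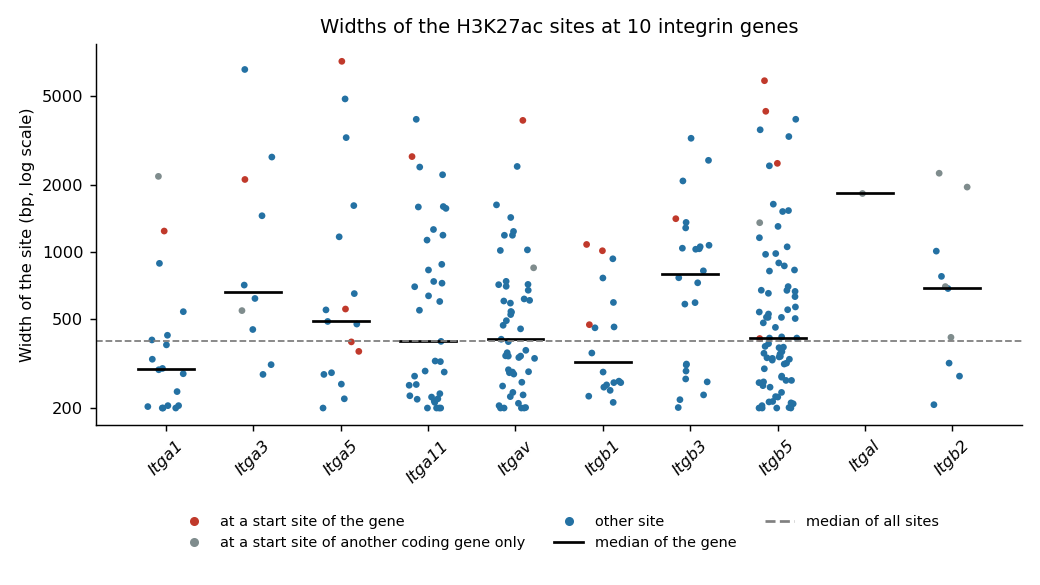
Width of each site (y axis, bp, log scale) at the 10 genes, coloured as in the map of the loci, with the median of each gene as a black bar and the median of all sites, 401 bp, as a dashed line. The widest points are 7179 bp at Itga5, 6599 bp at Itga3, for a site whose middle was outside the window, and 5877 bp at Itgb5.

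The sequence of sites away from promoters was described with the cores of factors that are active in many fibroblasts. To show such a site, the middle 300 bases of the widest one at each of the 3 genes with most sites are printed, from GRCm38.p6 as given by RefSeq on the strand of the gene. Capitals mark TGANTCA (AP-1), CATTCC (TEAD) and TGTGGT (RUNX) on either strand.
Itga11 (chr9:62673555-62673854, plus strand): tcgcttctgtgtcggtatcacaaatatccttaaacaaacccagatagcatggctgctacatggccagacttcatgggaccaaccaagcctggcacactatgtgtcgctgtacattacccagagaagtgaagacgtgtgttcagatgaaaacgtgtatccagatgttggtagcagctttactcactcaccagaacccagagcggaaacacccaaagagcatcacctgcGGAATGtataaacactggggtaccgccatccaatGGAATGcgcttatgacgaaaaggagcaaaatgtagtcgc
Itgav (chr2:83744815-83745114, plus strand): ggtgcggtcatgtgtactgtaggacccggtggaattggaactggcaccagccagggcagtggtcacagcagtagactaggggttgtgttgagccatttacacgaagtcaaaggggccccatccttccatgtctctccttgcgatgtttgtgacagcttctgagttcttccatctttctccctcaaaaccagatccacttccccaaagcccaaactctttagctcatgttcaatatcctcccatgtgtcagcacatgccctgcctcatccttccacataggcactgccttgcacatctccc
Itgb5 (chr16:33833605-33833904, plus strand): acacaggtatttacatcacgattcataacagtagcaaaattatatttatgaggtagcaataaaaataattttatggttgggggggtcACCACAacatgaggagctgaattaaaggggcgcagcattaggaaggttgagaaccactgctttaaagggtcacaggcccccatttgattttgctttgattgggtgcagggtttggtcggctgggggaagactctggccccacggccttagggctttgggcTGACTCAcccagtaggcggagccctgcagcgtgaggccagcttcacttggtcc

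The Itgb5 site, 3946 bp in intron 1 and centred 4.09 kb downstream of the 5′ end, held 1 AP-1 and 1 RUNX match in these bases. The Itga11 site, 3944 bp and centred at -4.12 kb from the 5′ end, held 2 TEAD matches. The Itgav site, 2424 bp in intron 2, held 0 of the 3 cores. Over all 232 sites of the matrix integrins away from promoters, the middle 300 bp contained an AP-1 core in 26 (11.2%, 95% Wilson interval 7.76 to 15.9%), a TEAD core in 36 (15.5%, 11.4 to 20.7%) and a RUNX core in 56 (24.1%, 19.1 to 30.0%). In the 102842 such sites of the list the shares were 13.5%, 19.003% and 23.9%, each inside the interval. The intervals cover counting error only, since neighbouring sites share a locus. By gene, AP-1 cores were in 8 of 72 sites at Itgb5, 5 of 23 at Itgb3, 5 of 36 at Itga11 and 0 of 13 at Itga5. A match is a string of letters and was not tested as a binding site.

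The rest of the integrin family served for comparison. Of the 17 other integrin genes, 9 had a promoter site, 7 of 10 among other integrins of matrix and epithelia (with Itga4, which white blood cells also use) and 2 of 7 among those of blood cells, compared to 8 of 8 above and 54.7% of all coding genes. They had a median of 5 sites per window and 5.24 per 100 kb, close to the coding-gene median of 4.88. The highest density among them was 18.6 at Itga7, a laminin receptor subunit of muscle, and 3 of its 12 sites were at promoters of other genes. Itga9 showed the reverse of Itgb5. Its gene body of 294 kb, the longest of the family, held 1 site of 251 bp, which was 6 bp from the 5′ end. Itga2, the collagen receptor subunit next to Itga1 on chromosome 13, had 4 sites and 0 at its promoter, or 1 with a promoter window of 2 kb. Of its 4 sites, 2 were at the promoter of Mocs2. Among blood cell integrins, Itgam, Itgax, Itgad, Itgae and Itgb2l had 0 promoter sites, whereas Itgb7 and Itga2b had 1 and 2. Both sites of Itga2b were at internal starts, and the nearest site was 2120 bp from its 5′ end. With coding TSSs only, or the single 5′ end, Itga2b had 0 promoter sites and Itgb7 kept 1. At Itgb7 5 of the 9 sites and at Itga2b 2 of the 8 were at promoters of other genes.

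Genes that act with these integrins were listed in 3 groups. Over all coding genes, 54.7% had a promoter site, and the medians were 4 sites per window and 4.88 per 100 kb. Of 23 genes of the adhesion machinery inside the cell, 19 had a promoter site, and the median was 28 sites per window and 24.1 per 100 kb. The most sites were at Tns3 (67), an adaptor of the tensin family, at Actn1 (66), which crosslinks actin, and at Vcl (55), which links talin to actin. Those without a promoter site were Fermt1, Fermt3, Parvg and Ptk2b, of which Ptk2b had 20 sites, the nearest 19 bp from its 5′ end with its middle beyond 1 kb. Fermt3 encodes kindlin-3 of blood cells, which activates beta2 integrins, and Fermt1 the kindlin of epithelia, while Fermt2, the widely expressed kindlin, had 36 sites with 3 at its promoter. Of 16 genes for matrix ligands 13 had a promoter site, with a median of 22 sites per window and 33.9 per 100 kb. Fbn1 (fibrillin, 105 sites), Fn1 (fibronectin, 57) and Lamc1 (a laminin chain, 54) had the most. Vtn, Col1a1 and Lama5 had none, but the 5′ ends of Col1a1 and Lama5 were inside wide sites whose middles were beyond 1 kb. Of 6 ligands of leukocyte integrins 2 had a promoter site, Vcam1 with 18 sites in its window and F11r with 13. Icam1, Icam2, Icam4 and Madcam1 had 0 promoter sites and 1 to 3 sites in their windows.

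The labelled cell type was checked with marker genes. Promoter sites were found at 8 of 10 fibroblast markers, 1 of 10 leukocyte markers (Csf1r), 1 of 5 endothelial (Cdh5) and 1 of 5 epithelial markers (Krt8), compared to 54.7% of coding genes. Those of Csf1r and Cdh5 were at other starts, since the nearest site was 5926 bp and 5430 bp from their annotated 5′ ends. Col1a1 and Prrx1, the fibroblast markers without a promoter site, had the 5′ end inside a site. The gene bodies of all 10 fibroblast markers carried a site (61.3% of coding genes). The annotated 5′ end was inside a site at 8 fibroblast markers and at 0 of the 10 leukocyte markers (36.5% of coding genes). The count of sites did not separate the types as clearly. The median was 14 sites per window at fibroblast markers (29.8 per 100 kb) and 12 at epithelial markers (14.97 per 100 kb). Cdh1 had 16 sites, 15 of them over its body. Krt8 had 16 and Krt18 had 12, with 0 over the body of either. The median was 2.5 at leukocyte and 4 at endothelial markers, compared to 4 over all coding genes. The part of these values in the results above was not tested.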

How the data were processed

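H3K27ac ChIP-seq was carried out in iMEF cells with 12 immunoprecipitated libraries and 2 inputs. The authors trimmed the reads, aligned them with BWA to mm10 (GRCm38.p6), filtered them with SAMtools, merged replicates with Picard, called narrow peaks with MACS and joined those of all samples. How they were joined and the peak threshold are not given in the sources used here, and a width can exceed that in any sample. The deposited values are chromosome, start and end positions. There are no counts, so the depth reached and the precision per sample cannot be read from the list and no test was run.

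Starts were read as counted from 0, since the narrowest sites then measured 200 bp, and positions are printed counted from 1. The 122171 sites on chromosomes 1 to 19 and X were set against GENCODE M21, an earlier release than the authors used. Overlap meant at least 1 bp. Gene parts refer to the principal coding transcript. Motifs were searched in the middle 300 bp of sites and in RefSeq promoters (250 bases before to 50 after the start). The set also included the CArG box, found in 2 of the 232 sites (0.862%), compared to 1.54% of the 102842 sites of the list away from promoters. Python 3.11.15, pandas 2.3.3, numpy 2.4.6, pysam 0.24.0, scipy 1.17.1 and matplotlib 3.10.9 were used. Counting was tested on simulated sites over 2000 genes, with 0 mismatches.

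The 10 members, the gene lists and the measures were chosen with earlier results of these data known. All members were described. From each list of partner genes, the 3 with most sites and those without a promoter site were named, together with Fermt2, chosen after its values were seen. The single positive marker of each other cell type was named too.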

Additional observations from a re-analysis of the deposited data

How the results depend on the processing

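No paired analysis was possible because positions carry no value per sample. With 9 results and 54 alternatives, 31 kept their value within 1.5 times (for shares of bases, within the counting interval) and 23 moved. A turn of direction was not possible, since all 9 are counts, densities or shares and none is a difference. The counting interval took each base as independent, although bases come in sites, so 20.8% was labelled as moved from 20.9%. The tally thus mixes a wide limit with a very narrow one. All 8 matrix integrins kept a promoter site with windows of 2 and 3 kb, with any overlap and without the narrowest 25% of sites, and 7 did with coding TSSs only or the single 5′ end, where Itga11 was lost. For the leukocyte integrins the count was 1 (Itgb2) with windows of 2 or 3 kb or any overlap. Joining sites less than 1 kb apart gave 87 regions and a median of 10.04 per 100 kb at the matrix integrins, and 6 and 3.95 at the leukocyte integrins. The leukocyte count was 2 over gene bodies (2.82 per 100 kb), 28 with flanks of 50 kb, and 2 (1.33 per 100 kb) when only sites nearest to the own TSS were kept. The share of bases in sites at the matrix integrins was 23.4% over gene bodies, 17.5% with 50 kb flanks, 20.8% by the middle of the site, 19.4% without the narrowest 25%, 26.5% after joining and 18.8% with own sites only. At the leukocyte integrins it was 1.20%, 8.36%, 6.48% without the narrowest 25%, 7.15% and 0.579% in the same order, leaving out the middle rule. Smaller windows and joining lower counts by construction, and the cause was not tested otherwise. Neither the time points nor replicate error can be read from the list, and a weak site below the peak threshold is not seen.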
